A study of Homo sapiens with 24 samples.

Results

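Expression of 10 genes of the Eph/ephrin family was examined in 2 hepatocellular carcinoma (HCC) cell lines, comprising 6 Eph receptors (EPHA2, EPHA4, EPHA7, EPHB2, EPHB3 and EPHB4) and 4 ephrin ligands (EFNA1, EFNA5, EFNB1 and EFNB2). These genes were found on the arrays as the probes whose accession belongs to one of the listed symbols, which gave 15 of 58201 non-control probes and 10 of 31204 named genes. The rule that picks the probes uses no measured value. EPHB2 and EPHA7 are each read by 3 probes, EPHB4 by 2 and the other members by 1, and the EFNA1 probe is printed as 10 spots on every array.

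The established lines PLC/PRF/5 and SNU-449 came from ATCC, and the study profiled total RNA on 24 one-colour Agilent arrays, 12 for each line. In each line 4 groups of 3 independent cultures were compared, namely untreated control cells, cells given recombinant human TGFβ1 at 1 ng/mL, cells given galunisertib (LY2157299) at 10 µM, and cells given both. All cultures were starved of serum overnight before a treatment of 16 h, so the controls share that starvation. Galunisertib inhibits the kinase of the type I TGFβ receptor, and each line is a single cultured line, so a difference between PLC/PRF/5 and SNU-449 is a difference between 2 lines and not between classes of tumour.

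Eph receptors are receptor tyrosine kinases whose ligands, the ephrins, stay attached to the surface of the neighbouring cell, so that signalling needs contact between cells. EPHA receptors mainly bind the glycolipid-anchored ephrin-A ligands and EPHB receptors the transmembrane ephrin-B ligands, with EPHA4 able to bind ligands of both kinds. The receptor signals forward into its own cell and the ephrin can signal in reverse into the cell that carries it, and the pair is known for steering cell repulsion, adhesion and the sorting of cells into separate compartments, in development as well as in tumours of epithelial origin.

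A level is given here as the log2 of the intensity of a probe over the 75th percentile of its array, so that 0 is the intensity of that percentile and 1 unit is a doubling. Levels of different probes are not set against each other, because probes differ in how strongly they bind. Signals below a floor of 5.70% of the percentile, a log2 of -4.13, were raised to that value, and a probe is said to be above background where the scanner software called it well above background. A gene was called when its p adjusted by Benjamini-Hochberg over all genes tested in limma was below 0.05. The labels do not tie the 3 cultures of a group to separate passages, so p-values measure the spread between these cultures.

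On these arrays the 75th percentile lay between 145 and 262 intensity units, the dimmest array being a control of PLC/PRF/5, and between 43.9% and 51.6% of spots were well above background. The replicate number is also the slide, of which there were 3. Arrays without TGFβ1 lay in the upper row of each slide and arrays with TGFβ1 in the lower row, so row and TGFβ1 cannot be told apart. PLC/PRF/5 lay in columns 1 and 2 of each slide and SNU-449 in columns 3 and 4. Within each line galunisertib had the later column, column 2 or 4. Column therefore cannot be told apart from line or from galunisertib. As a check of the treatments, SMAD7, a feedback inhibitor of the TGFβ pathway, was higher with TGFβ1 by 0.80 ± 0.11 (log2 difference ± SE) in PLC/PRF/5 and by 0.65 ± 0.13 in SNU-449, with limma's adjusted p of 0.000895 and 0.0112. SKIL, another feedback regulator, was higher by 1.63 ± 0.11 in PLC/PRF/5, while its difference of 0.93 ± 0.30 in SNU-449 did not pass (adjusted p = 0.083). All 10 hepatocyte markers listed for this work were higher on every PLC/PRF/5 array than on any SNU-449 array. In SNU-449 APOB, HNF4A and TF were above background on 0 of 12 arrays and ALB on 2 of 12, while the other 6 were above background on 12 of 12. Of 6 markers listed for stellate cells and fibroblasts, all were above background on 12 of 12 SNU-449 arrays. In PLC/PRF/5 COL1A1, COL1A2 and LRAT were so on 0 of 12 and RGS5 on 1, but DES and PDGFRB on 12, with PDGFRB higher on every PLC/PRF/5 array than on any of SNU-449. Of 5 endothelial markers, PECAM1, KDR and TEK were above background on no array of either line, CDH5 on 8 arrays of PLC/PRF/5 and 5 of SNU-449, and VWF on all 24 at low levels.

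The promoter windows of RefSeq (build GRCh38.p14, 250 bases before to 50 after the annotated start) were available for all 10 members, in 14 windows. They were searched on both strands for CAGAC and, separately, for the palindrome GTCTAGAC, letters to which SMAD proteins can bind, and for TGANTCA, the letters of an AP-1 element. The short motif CAGAC lay in 7 of the 14 windows, from 4 genes (EPHA4, EPHA7, EPHB3 and EFNA1), against 45.3% of all 35114 windows. Neither GTCTAGAC, held by 0.202% of all windows, nor TGANTCA, held by 7.71%, lay in any member window. The 250 bases before the start are shown for the 4 genes called in 3 or more of the treatment comparisons within the lines, 5′ to 3′ on the strand of the gene, with CAGAC or its reverse complement in capitals. EFNA1 (chr1:155127626-155127875, plus strand) holds 1 copy, beginning 225 bases before the start. EPHB2 (chr1:22710588-22710837, plus strand) lies in a window of 83% G and C and holds none, nor does EPHA2 (chr1:16156070-16156319, minus strand). EPHA7 has 3 annotated starts, of which the one shown (chr6:93417383-93417632, minus strand) holds 1 copy in the part printed. A match is a description of the letters and says nothing of binding in these cells.
EFNA1: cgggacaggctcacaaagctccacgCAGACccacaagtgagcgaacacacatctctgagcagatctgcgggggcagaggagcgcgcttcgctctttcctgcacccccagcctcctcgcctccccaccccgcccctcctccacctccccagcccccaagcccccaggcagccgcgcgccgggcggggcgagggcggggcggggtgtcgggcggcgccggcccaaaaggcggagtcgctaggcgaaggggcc
EPHB2: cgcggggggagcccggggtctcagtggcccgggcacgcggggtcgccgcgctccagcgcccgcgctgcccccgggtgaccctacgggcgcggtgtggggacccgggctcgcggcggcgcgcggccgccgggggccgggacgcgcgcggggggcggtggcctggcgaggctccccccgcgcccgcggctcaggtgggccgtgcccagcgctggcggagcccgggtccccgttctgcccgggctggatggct
EPHA2: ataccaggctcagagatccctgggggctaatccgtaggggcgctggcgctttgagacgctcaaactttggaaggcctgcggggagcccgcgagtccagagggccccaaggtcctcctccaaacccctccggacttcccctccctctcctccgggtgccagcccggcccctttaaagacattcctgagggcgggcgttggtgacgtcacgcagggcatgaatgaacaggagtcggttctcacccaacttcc
EPHA7: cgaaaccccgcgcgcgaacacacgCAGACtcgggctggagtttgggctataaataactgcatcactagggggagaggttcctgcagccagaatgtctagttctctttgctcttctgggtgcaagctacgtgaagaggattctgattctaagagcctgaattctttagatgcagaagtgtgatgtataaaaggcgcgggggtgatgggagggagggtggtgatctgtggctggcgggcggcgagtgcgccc

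The first comparison asked how the untreated lines differed. In control cells 9 of the 10 members differed between the lines, where 68.5% of all 17902 genes tested did, so the share of members called is read against a background that is itself high. SNU-449 carried more EPHA2, EPHA4, EPHB2, EPHB4, EFNA1, EFNA5 and EFNB2, and PLC/PRF/5 more EPHB3 and EFNB1. The median log2 difference of the members, PLC/PRF/5 minus SNU-449, was -1.87, beside 0.06 over all genes tested. By the stricter rule of the methods, a fold change above 2 with an unadjusted P below 0.001, 8 of 10 were called, beside 34.3% of all genes. EPHA4, EFNA5 and EFNB2 in PLC/PRF/5 controls and EPHB3 in SNU-449 controls were at the floor on every array. Those genes were tested only because the other line is above background. Both counts and the median include them, and the floor leaves no spread in that group. Their p-values, here and below, rest in part on the floor. In RNA of whole cultures fewer cells that express a gene and less RNA per cell cannot be told apart. The separation of the lines gene by gene is seen in the plot of levels on every array.

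**Figure D1:**
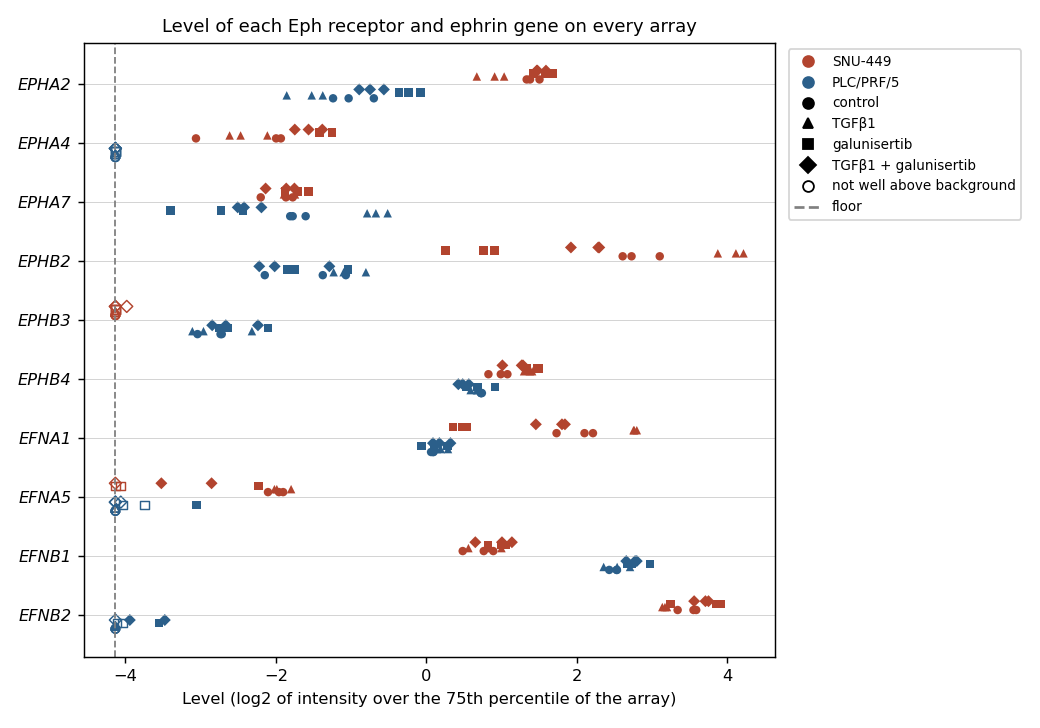
Level of each of the 10 genes on each of the 24 arrays, on the log2 scale relative to the 75th percentile of the array, for the probe used in the comparison of the lines (3 arrays per line and treatment, colours mark the line and shapes the treatment). Open symbols are not well above background and the dashed line is the floor at -4.13. EFNB2 and EPHB2 of SNU-449 lie to the right of every PLC/PRF/5 array, EFNB1 lies to the left of them, and the arrays of the lines overlap for EPHA7, EPHB4 and EFNA5.

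Of the B receptors, EPHB2, which binds ephrin-B ligands, read 3.1, 2.61 and 2.73 in the control cultures of SNU-449 and -1.38, -1.07 and -2.15 in those of PLC/PRF/5. The groups lay far apart, by 4.34 ± 0.28 (log2 difference ± SE, 20.3-fold, adjusted p = 3.47e-11). The other EPHB2 probes were above background on no control array of PLC/PRF/5, which made EPHB2 at least 12.5-fold and at least 42.5-fold higher in SNU-449 on those probes. Such bounds set the mean of the bright group against the higher of the weakest signal well above background and the signal of the dim probe itself. EPHB3, the B receptor best known from the intestinal crypt, was read at -2.72, -2.74 and -3.04 in PLC/PRF/5 controls. It was above background on 12 of 12 PLC/PRF/5 arrays and 0 of 12 SNU-449 arrays so PLC/PRF/5 held at least 2.46-fold more (adjusted p = 3.30e-06). EPHB4, the receptor of ephrin-B2 in vein development, was close in both lines, with controls at 0.99, 1.08 and 0.83 in SNU-449 and at 0.73, 0.73 and 0.74 in PLC/PRF/5. Its difference of 0.23 ± 0.09 toward SNU-449 just passed the test (adjusted p = 0.0352), but on the second EPHB4 probe the difference was 0.09 ± 0.15 toward SNU-449, which did not pass (adjusted p = 0.637), and leaving out any one of 5 of the 6 control arrays, each in turn, also lost the call (adjusted p from 0.0612 to 0.145).

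Of the A receptors, EPHA2, a receptor widely studied in carcinoma, read 1.5, 1.33 and 1.38 in SNU-449 controls and -0.70, -1.24 and -1.03 in PLC/PRF/5 controls. It was higher in SNU-449 by 2.40 ± 0.14 (5.26-fold, adjusted p = 8.60e-12). EPHA4, the receptor that accepts ligands of both classes, was above background on 12 of 12 SNU-449 arrays and on 0 of 12 PLC/PRF/5 arrays. Its SNU-449 controls read -2.0, -1.93 and -3.06, and the gene was at least 3.13-fold higher there (adjusted p = 1.10e-07). EPHA7, an A receptor best known from the nervous system, is the member for which the answer depended on the probe. The probe used read -2.20, -1.78 and -1.87 in SNU-449 controls and -1.60, -1.81 and -1.78 in PLC/PRF/5 controls, overlapping groups with a difference of 0.22 ± 0.18 (adjusted p = 0.296). On another probe of EPHA7 PLC/PRF/5 was higher by 1.39 ± 0.21 (adjusted p = 8.08e-06).

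Of the ligands, EFNB2, which encodes ephrin-B2, showed the widest gap between the lines among the 10 genes. Its control cultures in SNU-449 read 3.34, 3.59 and 3.55, whereas those in PLC/PRF/5 were all at the floor and not above background, so EFNB2 was at least 177-fold higher in SNU-449 (adjusted p = 9.62e-19). EFNB1, encoding ephrin-B1, went the other way, with 2.43, 2.53 and 2.53 in PLC/PRF/5 against 0.76, 0.48 and 0.89 in SNU-449. The difference was 1.79 ± 0.14 (3.45-fold, adjusted p = 6.62e-10). EFNA1, which encodes the ligand ephrin-A1 and was first known as a gene induced by tumour necrosis factor, read 1.73, 2.21 and 2.10 in SNU-449 controls and 0.06, 0.09 and 0.10 in PLC/PRF/5 controls, a gap of 1.93 ± 0.12 (3.82-fold, adjusted p = 1.89e-11). EFNA5, encoding ephrin-A5, was above background in all 3 SNU-449 controls, at -1.90, -2.10 and -1.96, and in none of PLC/PRF/5, a bound of at least 3.96-fold (adjusted p = 3.69e-05). The 2 B ligands therefore stood in opposite order in the lines, EFNB1 being higher in PLC/PRF/5 and EFNB2 in SNU-449.

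The next comparisons asked what TGFβ1 and galunisertib did to these genes within each line, and they are shown together in the plot of differences. In SNU-449 EPHB2 and EFNA1 were higher with TGFβ1 and lower with galunisertib, whether or not TGFβ1 was present. EPHA2 was lower with TGFβ1 in both lines, and in PLC/PRF/5 EPHA7 was higher with TGFβ1 and lower with galunisertib. EPHA4, EPHB4 and EFNA5 were called in some comparisons of SNU-449, in each case close to the threshold, and EFNB1 and EFNB2 in none. EPHB3, above background on no SNU-449 array, was not tested there. The comparisons against the same control cultures, and those against the same TGFβ1 cultures, share those arrays, so their values are set side by side and are not separate evidence.

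**Figure D2:**
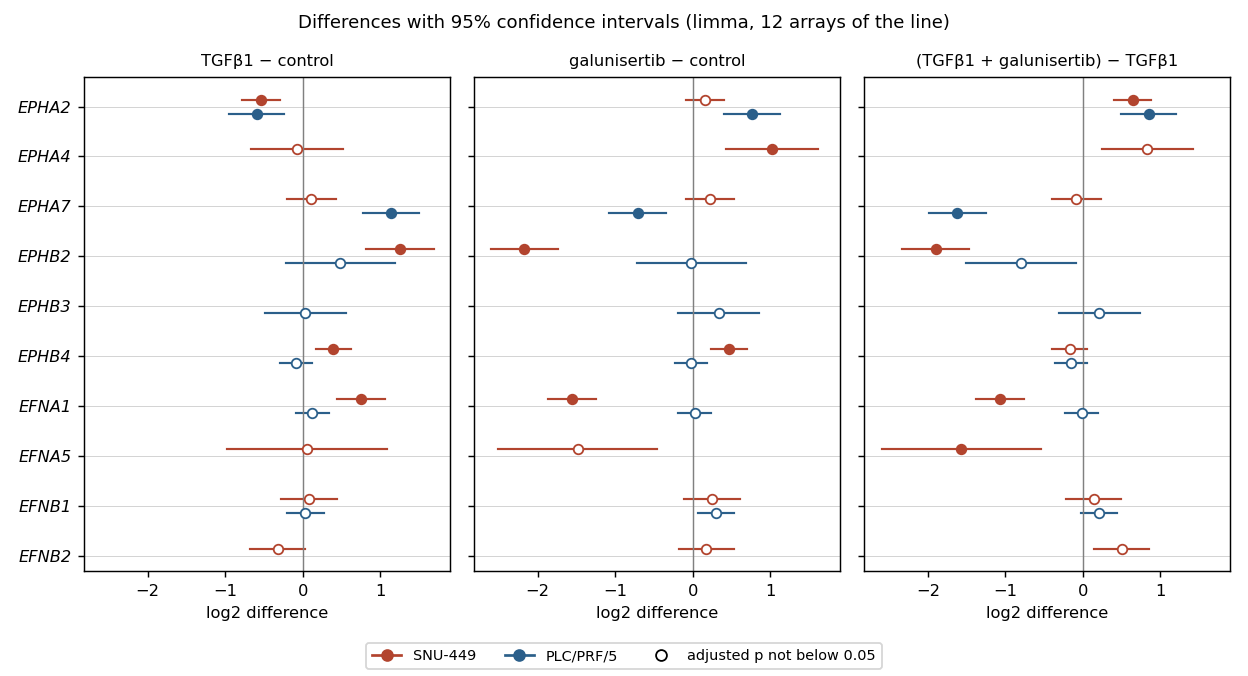
Log2 difference of each gene under TGFβ1 alone, galunisertib alone, and galunisertib on top of TGFβ1, in SNU-449 and PLC/PRF/5, with points for the estimates and bars for 95% confidence intervals of limma over the 12 arrays of the line (3 per group). Open points did not pass an adjusted p of 0.05, and a gene that was not tested in a line has no point. EPHB2 and EFNA1 of SNU-449 lie right of 0 with TGFβ1 and left of it with galunisertib, and EPHA7 does so in PLC/PRF/5.

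With TGFβ1 alone 4 of the 9 members tested in SNU-449 were called, where 10.5% of all 16101 genes were. Of these, 3 were higher (EPHB2, EFNA1 and EPHB4) and 1 lower (EPHA2). With galunisertib alone 4 of 9 were called, beside 7.43% of all genes, with EPHA4 and EPHB4 higher and EPHB2 and EFNA1 lower. With galunisertib added to TGFβ1 4 of 9 were called, beside 17.1% of all genes, with EPHA2 higher and EPHB2, EFNA1 and EFNA5 lower. With TGFβ1 added to galunisertib 2 of 9 were called, EPHB2 and EFNA1, both higher, where 1.9% of all genes were called. The median over the members stayed near that of all genes, at 0.08 beside 0.02 with TGFβ1 and 0.18 beside 0.09 with galunisertib, with members on both sides. By the stricter rule of fold and unadjusted P, EPHB2 alone passed with TGFβ1 (2.33% of all genes), and EPHB2 and EFNA1 passed in each of the other comparisons, beside 1.14% with galunisertib alone, 3.81% with galunisertib added to TGFβ1 and 0.702% with TGFβ1 added to galunisertib.

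EPHB2 showed the widest response to either treatment among the members in SNU-449. Its cultures read 3.87, 4.11 and 4.22 with TGFβ1, above the control values of 3.1, 2.61 and 2.73. With galunisertib they read 0.25, 0.91 and 0.76, below every control, and with both they read 2.28, 2.30 and 1.92. The 4 groups did not overlap and stood in the order TGFβ1, control, both, galunisertib. TGFβ1 alone raised EPHB2 by 1.26 ± 0.20 (log2 difference ± SE, 2.39-fold, adjusted p = 0.00248). Galunisertib alone lowered it, with a difference of -2.17 ± 0.20 (4.51-fold, adjusted p = 0.000347), and on top of TGFβ1 the difference was -1.90 ± 0.20 (3.73-fold, adjusted p = 0.000111). In the presence of galunisertib TGFβ1 still raised EPHB2, by 1.53 ± 0.20 (2.88-fold, adjusted p = 0.0048). All 3 EPHB2 probes passed each of these tests in the same direction, with log2 differences between 1.26 and 1.46 for TGFβ1 and between -1.99 and -2.23 for galunisertib.

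**Figure D3:**
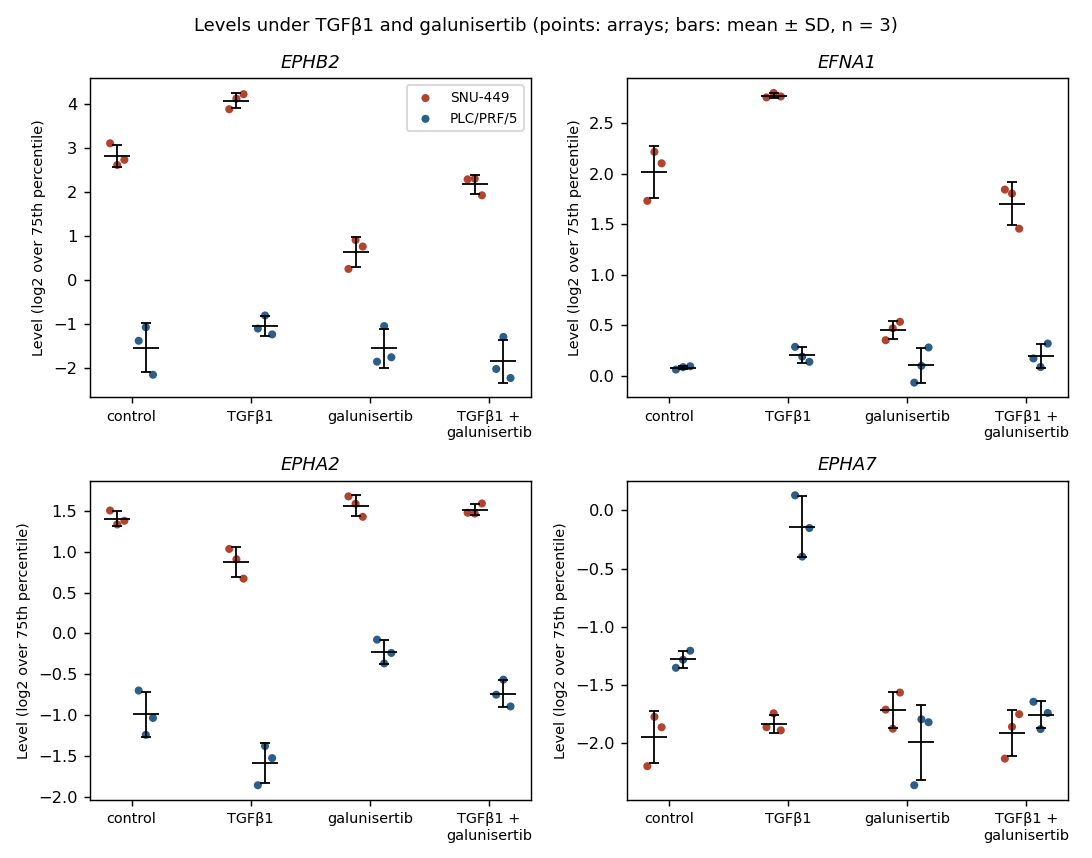
Levels of EPHB2, EFNA1, EPHA2 and EPHA7 under the 4 treatments in SNU-449 and PLC/PRF/5, on the log2 scale relative to the 75th percentile of the array, with a point for each of the 3 arrays of a group and bars for the mean and SD. For EPHA7 the probe is that used within each line, which differs between the lines. EPHB2 and EFNA1 of SNU-449 reach their highest values with TGFβ1 and their lowest with galunisertib, while EFNA1 of PLC/PRF/5 stays between -0.07 and 0.32.

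EFNA1 followed the same order of groups in SNU-449. The cultures read 2.75, 2.80 and 2.76 with TGFβ1, 1.84, 1.80 and 1.46 with both agents, and 0.35, 0.47 and 0.54 with galunisertib, beside 1.73, 2.21 and 2.10 in controls. The TGFβ1 cultures were all above the controls and the galunisertib cultures all below them, while the cultures given both overlapped the controls. TGFβ1 alone raised EFNA1 by 0.76 ± 0.14 (1.69-fold, adjusted p = 0.00639), and in the presence of galunisertib by 1.25 ± 0.14 (2.37-fold, adjusted p = 0.00272). Galunisertib alone gave a difference of -1.56 ± 0.14 (2.95-fold, adjusted p = 0.000347), and on top of TGFβ1 one of -1.07 ± 0.14 (2.10-fold, adjusted p = 0.00049). The 10 spots of the EFNA1 probe gave a look at the precision of a single array. Their SD on one array had a median of 0.086, from 0.036 to 0.30, and the pooled SD between arrays of a group was 0.145, so the treatment differences of EFNA1 in SNU-449 were larger than either spread.

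EPHA2, for which ephrin-A1 is a principal ligand, moved opposite to EFNA1 under TGFβ1. Its SNU-449 cultures read 1.03, 0.91 and 0.67 with TGFβ1 against 1.5, 1.33 and 1.38 in controls, 1.68, 1.59 and 1.43 with galunisertib, and 1.48, 1.47 and 1.59 with both. The TGFβ1 cultures were the lowest of the 4 groups and did not overlap any other, and the other groups overlapped their neighbours. TGFβ1 alone changed EPHA2 by -0.53 ± 0.11 (1.45-fold, adjusted p = 0.0113) and galunisertib on top of TGFβ1 raised it by 0.64 ± 0.11 (1.56-fold, adjusted p = 0.00275). Galunisertib alone gave 0.16 ± 0.11, which did not pass (adjusted p = 0.407), and in the presence of galunisertib TGFβ1 gave -0.05 with a 95% confidence interval from -0.30 to 0.19.

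EPHB4 depended on the probe. The probe used read 1.37, 1.30 and 1.41 with TGFβ1 and 1.47, 1.33 and 1.5 with galunisertib in SNU-449, all above the controls, which gave 0.40 ± 0.10 (adjusted p = 0.0348) and 0.47 ± 0.10 (adjusted p = 0.0243). On the second probe the same differences were 0.20 ± 0.11 (adjusted p = 0.355) and -0.24 ± 0.11 (adjusted p = 0.255), so the direction under galunisertib was not shared, as the plot of probes shows. With galunisertib on top of TGFβ1 the second probe was lower by 0.60 ± 0.11 (adjusted p = 0.00627) and the probe used gave -0.17 ± 0.10 (adjusted p = 0.302). On the probe used, leaving out 1 array at a time lost the call with TGFβ1 for 5 of the 6 arrays (adjusted p from 0.0771 to 0.12) and with galunisertib for 4 of 6 (0.0596 to 0.0694). The replicate block also ended the call with TGFβ1 (adjusted p = 0.0538). No direction for EPHB4 under galunisertib is therefore given here.

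**Figure D4:**
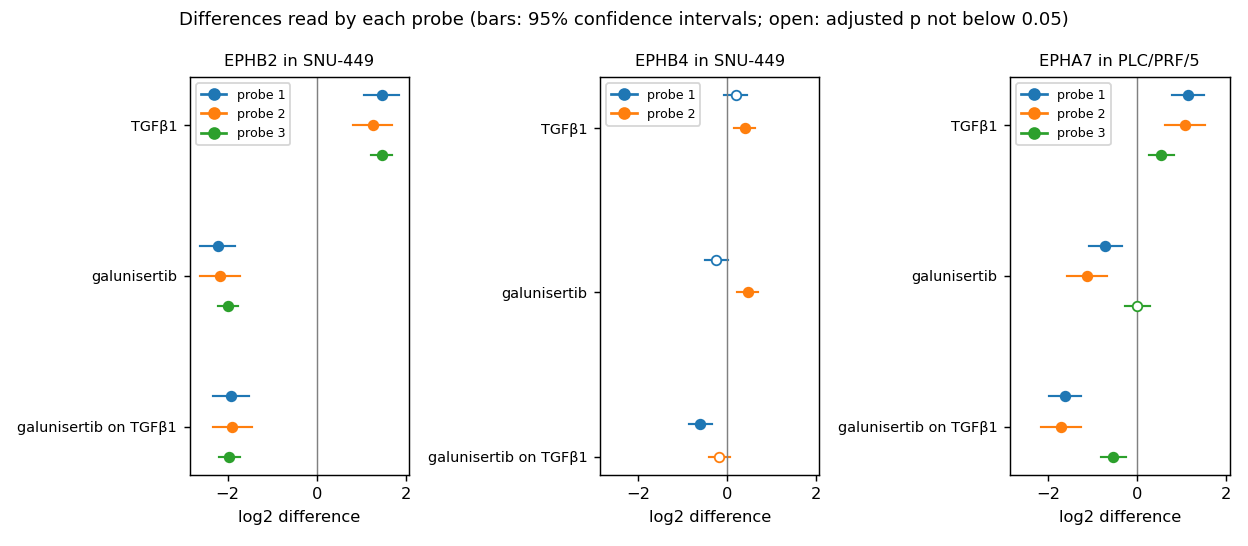
Log2 differences read by each probe of EPHB2 and EPHB4 in SNU-449 and of EPHA7 in PLC/PRF/5 under the 3 treatment comparisons named on the vertical axis, with points for the estimates and bars for 95% confidence intervals (limma over 12 arrays of the line, adjusted over all probes tested). Open points did not pass an adjusted p of 0.05. The EPHB2 probes lie together, the EPHB4 probes lie on opposite sides of 0 under galunisertib, and 2 of the 3 EPHA7 probes lie together, while the third was at the floor in every group but TGFβ1 alone, so that its fitted differences depend on the floor.

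EPHA4 read -1.25, -1.42 and -1.25 with galunisertib in SNU-449 against -2.0, -1.93 and -3.06 in controls. The difference of 1.02 ± 0.27 passed narrowly (2.03-fold, adjusted p = 0.0463), and without the third control it was 0.66 with an adjusted p of 0.0512. Leaving out any one of 4 other arrays also lost the call, with adjusted p-values up to 0.109. With both agents EPHA4 read -1.38, -1.57 and -1.75 and with TGFβ1 -2.11, -2.61 and -2.47, a difference of 0.83 ± 0.27 that did not pass (adjusted p = 0.0579) but passed with the replicate number as a block (adjusted p = 0.0471). EFNA5 was above background on all 6 SNU-449 arrays without galunisertib and on 3 of the 6 with it. With galunisertib the EFNA5 probe read -4.13 and -4.06, both not above background, and -2.23, so a single culture lay near the controls. The difference from control was -1.49 ± 0.46 (adjusted p = 0.0796), and without that culture it was -2.11 (adjusted p = 0.00474). On top of TGFβ1 the values were -3.52, -4.13 and -2.85, with a difference of -1.57 ± 0.46 that passed (adjusted p = 0.0416) and that lost the call when any one of 5 of the 6 arrays was left out (adjusted p from 0.0931 to 0.134).

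The B ligands, and EPHA7 on the probe used in SNU-449, gave no call there. EFNB2 read 3.17, 3.20 and 3.14 with TGFβ1, 3.85, 3.91 and 3.25 with galunisertib and 3.75, 3.56 and 3.71 with both. The TGFβ1 cultures were the lowest, but neither -0.32 ± 0.16 for TGFβ1 alone (adjusted p = 0.253) nor 0.50 ± 0.16 for galunisertib on top of it (adjusted p = 0.0556) passed. EFNB1 lay between 0.48 and 1.14 on all 12 SNU-449 arrays, with differences from -0.03 to 0.25 over the 4 comparisons. EPHA7 lay between -2.20 and -1.57 there, with differences from -0.20 to 0.23.

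In PLC/PRF/5 7 members were tested, since EPHA4, EFNA5 and EFNB2 were above background in no complete group. Of the 7, 2 were called with TGFβ1 alone, beside 13.5% of all 16684 genes, with EPHA7 higher and EPHA2 lower. With galunisertib alone EPHA2 was higher and EPHA7 lower, 2 of 7 beside 5.42% of all genes. With galunisertib added to TGFβ1 the same 2 genes were called, EPHA2 higher and EPHA7 lower, beside 39.1% of all genes, so the share of members called, 28.6%, was below the background. With TGFβ1 added to galunisertib no member was called by limma, beside 8.55% of all genes. There 2 members, EPHA2 and EPHB4, had an unadjusted p below 0.05, and a plain t-test of each gene also called none after adjustment. By the stricter rule EPHA7 passed with TGFβ1 alone (1.1% of all genes) and with galunisertib added to it (3.09%), and no member passed with galunisertib alone (0.342%) or with TGFβ1 added to galunisertib (0.294%).

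EPHA7 was the receptor that moved most in PLC/PRF/5. The probe used there read 0.13, -0.40 and -0.15 with TGFβ1 against -1.35, -1.28 and -1.21 in controls, and -2.36, -1.80 and -1.82 with galunisertib. With both agents the cultures read -1.65, -1.88 and -1.74. The TGFβ1 group lay above all other groups and the galunisertib group below the controls, while the groups with and without TGFβ1 overlapped in the presence of galunisertib. TGFβ1 raised EPHA7 by 1.14 ± 0.16 (2.21-fold, adjusted p = 0.00149) and galunisertib on top of it changed EPHA7 by -1.62 ± 0.16 (3.07-fold, adjusted p = 5.51e-05). Galunisertib alone gave -0.71 ± 0.16 (1.64-fold, adjusted p = 0.0353), and TGFβ1 in the presence of galunisertib gave 0.24 ± 0.16 (adjusted p = 0.359). The call with galunisertib alone was lost without any one of 5 of the 6 arrays (adjusted p from 0.0557 to 0.0998) and with the replicate block (adjusted p = 0.0585), and the calls with TGFβ1 alone and with galunisertib on top of it held without any single array. The second probe gave 1.07 ± 0.20, -1.72 ± 0.20 and -1.12 ± 0.20 for the first 3 of these, each with an adjusted p below the threshold. The third probe was above background with TGFβ1 alone and in no other group, which made EPHA7 at least 1.3-fold higher with TGFβ1 than in controls on that probe. It was tested only because of that group and lay at the floor in the others, so no p-value is given for it.

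EPHA2 moved in PLC/PRF/5 as it did in SNU-449 under TGFβ1. The cultures read -1.86, -1.38 and -1.52 with TGFβ1 against -0.70, -1.24 and -1.03 in controls, and the groups did not overlap. With galunisertib they read -0.08, -0.37 and -0.24, above every control, and with both -0.75, -0.56 and -0.89. TGFβ1 alone gave -0.60 ± 0.16 (1.51-fold, adjusted p = 0.0345), galunisertib alone 0.76 ± 0.16 (1.70-fold, adjusted p = 0.0257) and galunisertib on top of TGFβ1 0.85 ± 0.16 (1.80-fold, adjusted p = 0.00211). The call with galunisertib on top of TGFβ1 held without any single array. The call with TGFβ1 alone was lost without any one of 4 of the 6 arrays (adjusted p from 0.0652 to 0.132) and with the replicate number as a block (adjusted p = 0.0577), and that with galunisertib alone without any one of 4 (0.0579 to 0.0904).

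The other members showed no call in PLC/PRF/5. EFNA1 lay between -0.07 and 0.32 on all 12 arrays, and its difference with TGFβ1 was 0.12 with a 95% confidence interval from -0.09 to 0.34. EPHB2 was lower with both agents (-2.02, -1.29 and -2.22) than with TGFβ1 alone (-1.10, -0.80 and -1.23), by -0.80 ± 0.32, which did not pass (adjusted p = 0.0722) but passed with the replicate number as a block (adjusted p = 0.00491). EPHB4 lay between 0.43 and 0.91, EFNB1 between 2.36 and 2.98, and EPHB3 between -3.11 and -2.10. EFNB2 was above background on 4 of the 12 PLC/PRF/5 arrays and EFNA5 on 1, and no change is given for them.

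The difference between the lines in each response was then tested over all 24 arrays, as the response in SNU-449 minus that in PLC/PRF/5. For TGFβ1 alone 3 of 10 members differed, beside 8.62% of all genes. EFNA1 rose more in SNU-449, by 0.63 ± 0.17 (adjusted p = 0.0233), and EPHB4 on the probe used by 0.48 ± 0.13 (adjusted p = 0.0307), whereas EPHA7 gave -0.96 ± 0.26 (adjusted p = 0.0223), being higher with TGFβ1 in PLC/PRF/5. The EPHA7 probe in all tests between the lines differs from the one used above within PLC/PRF/5. EPHB2 was called in SNU-449 and not in PLC/PRF/5, but the difference of 0.77 between the lines did not pass (95% confidence interval from -0.06 to 1.60, adjusted p = 0.282). The other EPHB2 probes gave 1.45 (adjusted p = 4.35e-05) and 1.09 (adjusted p = 0.0148), and the mean of all probes 1.10 (adjusted p = 0.00164). Each of those other probes was above background on 1 of the 12 PLC/PRF/5 arrays and at the floor on the rest. The response of PLC/PRF/5 was therefore not measured on them, and these values, with the mean that includes them, rest on the floor. On the probe used the result depended on the background correction, normexp giving 0.98 (adjusted p = 0.0303). For EPHA2 the TGFβ1 responses differed by 0.06, with an interval from -0.36 to 0.48. Leaving out 1 of the 12 arrays lost the call of EFNA1 for 3 arrays (adjusted p from 0.0552 to 0.0623), of EPHA7 for 4 (0.0529 to 0.0635) and of EPHB4 for 9 (0.0505 to 0.0804). No member passed the stricter rule here, beside 2.29% of all genes.

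For galunisertib alone 6 of 10 members differed between the lines, beside 5.87% of all genes. EPHB2 (-2.16 ± 0.40, adjusted p = 0.00239) and EFNA1 (-1.59 ± 0.17, adjusted p = 1.06e-05) gave the lower response in SNU-449, and EPHA7 (1.35 ± 0.26, adjusted p = 0.00298) the lower response in PLC/PRF/5. The remaining 3 were EPHB4 (0.49 ± 0.13), EPHA4 (1.02 ± 0.28) and EFNA5 (-2.01 ± 0.52), with adjusted p-values of 0.0354, 0.0356 and 0.027. For galunisertib on top of TGFβ1 5 of 10 members differed, beside 29.1% of all genes. EFNA1 (-1.06 ± 0.17, adjusted p = 0.000141) and EPHB2 (-1.10 ± 0.40, adjusted p = 0.0428) again gave the lower response in SNU-449, and EPHA7 (1.63 ± 0.26, adjusted p = 0.000112) in PLC/PRF/5. EPHA4 and EFNA5 again passed, at 0.83 ± 0.28 and -1.59 ± 0.52, but EPHA4 was above background on 0 and EFNA5 on 1 of the 12 PLC/PRF/5 arrays, so their response in that line was not measured and these tests rest on the floor. Leaving out 1 of 12 arrays, the calls of EFNA1 and EPHA7 held throughout in both comparisons, and that of EPHB2 did for galunisertib alone. On top of TGFβ1 the call of EPHB2 was lost for 9 arrays (adjusted p from 0.0515 to 0.122). The calls of EPHB4, EPHA4 and EFNA5 were lost for 4 to 10 arrays. The stricter rule passed EPHB2, EFNA1 and EPHA7 for galunisertib alone (1.54% of all genes), and EFNA1 and EPHA7 for galunisertib on top of TGFβ1 (6.14%).

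Of the 12 further family members on the arrays, 6 were tested in at least 1 line. In SNU-449 EFNA4 was higher by 0.79 ± 0.21 with TGFβ1 (adjusted p = 0.0407) and lower by 1.16 ± 0.21 when galunisertib was added (adjusted p = 0.00402), the same directions as EFNA1. EFNA2 passed the same tests in the same directions, at 0.90 ± 0.24 and -1.37 ± 0.24, at levels near the floor. EPHA5, a receptor above background in SNU-449 and at least 9.8-fold higher there than in PLC/PRF/5, was higher by 0.89 ± 0.18 when galunisertib was added to TGFβ1 (adjusted p = 0.00721). EPHA10, a receptor that lacks kinase activity, stood in PLC/PRF/5 at least 5.9-fold above SNU-449. EFNB3, encoding ephrin-B3, was above background in PLC/PRF/5 on 3 of 3 arrays with TGFβ1. It was so on 1 of 3 controls and on 0 of 3 arrays with both agents, where it was at the floor. EFNB3 was higher there by 0.70 ± 0.12 with TGFβ1 and lower by 0.95 ± 0.12 when galunisertib was added. It was tested only because of the TGFβ1 group, so these differences depend on the floor and no p-value is given. As a bound, EFNB3 was at least 2.04-fold higher with TGFβ1 than with both agents. EFNA3 gave no call in either line.

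Genes that act downstream of the receptors or ligands were described from 2 lists. Of the 35 genes listed for forward signalling, 33 were tested in each line. In SNU-449 6 of the 33 were higher and 1 lower with TGFβ1, beside 10.5% of all genes called in either direction. With galunisertib alone 1 was higher, a share below the 7.43% of all genes, and with galunisertib on top of TGFβ1 3 were higher and 6 lower, beside 17.1%. The 3 comparisons had list medians of 0.21, 0.11 and -0.10 beside 0.02, 0.09 and 0.01 over all genes. Among them NGEF, encoding the exchange factor ephexin, was higher by 0.70 ± 0.10 with TGFβ1 (adjusted p = 0.0016) and RASA1, encoding a Ras GTPase-activating protein, by 0.69 ± 0.19 (adjusted p = 0.0441). RASA1 was lower by 0.91 ± 0.19 when galunisertib was added (adjusted p = 0.00782). Of the 18 genes listed for reverse signalling and shedding, 14 were tested in SNU-449. With TGFβ1 3 were higher, beside 10.5% of all genes called. With galunisertib on top 1 was higher and 2 lower, near the 17.1% of all genes. ADAM19, a membrane metalloprotease, made the widest moves of either list, at 2.66 ± 0.21 with TGFβ1 (adjusted p = 3.53e-05), -1.18 ± 0.21 with galunisertib (adjusted p = 0.00999) and -3.27 ± 0.21 with galunisertib on top of TGFβ1 (adjusted p = 5.46e-06). In PLC/PRF/5 the forward list gave 3 higher and 2 lower of 33 with TGFβ1, near the 13.5% of all genes, including CBL, a ubiquitin ligase that turns over activated receptors, at 1.19 ± 0.24 (adjusted p = 0.0081). With galunisertib on top of TGFβ1 it gave 10 higher and 5 lower there, beside 39.1% of all genes, among them PAK1 at -0.60 ± 0.07 (adjusted p = 0.000106) and TIAM1, an activator of RAC, at 0.59 ± 0.10 (adjusted p = 0.00118), while TIAM1 gave -0.59 ± 0.17 in SNU-449 (adjusted p = 0.0341).

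The genes whose levels most resembled those of EPHB2 over the 12 SNU-449 arrays were ITGB6, lnc-TSHB-2 and DNM3, with Pearson correlations of 0.985, 0.984 and 0.984. For EFNA1 they were FOXS1 (0.99), KLF7 (0.989) and COL1A1 (0.986), for EPHA2 AOX1, TYSND1 and RGCC (0.978, 0.964 and 0.963), and for EPHB4 KDM5C, SLC66A2 and UBE2NL (0.942, 0.931 and 0.918). These values describe likeness only, since the 12 arrays fall into 4 treatment groups that every responding gene shares. The level of the stellate cell and fibroblast markers, summed over 6 genes, moved with the same treatments in SNU-449, but only 2 of the 6 genes passed the test with TGFβ1 (both higher), 1 with galunisertib alone and 1 with galunisertib on top of TGFβ1 (each lower). Over all genes 10.5%, 7.43% and 17.1% were called in these comparisons. The sum weights bright genes, and over the 12 arrays COL1A1 spanned 3.83 to 7.69, COL1A2 5.43 to 6.14 and RGS5 4.48 to 5.68. The sum lay between 7.33 and 7.68 (log2) in controls, between 8.23 and 8.37 with TGFβ1, between 6.46 and 6.77 with galunisertib and between 6.90 and 7.39 with both, with all 6 markers above background on all 12 arrays. In PLC/PRF/5 its range over the 12 arrays was 1.25 to 2.07, with COL1A1, COL1A2 and LRAT at the floor. Its part in the responses of EPHB2 and EFNA1 was not tested.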

How the data were processed

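RNA of 24 cultures was hybridised to Agilent SurePrint G3 arrays, 1 culture per array. Scanner output of Agilent Feature Extraction 10.7.3.1 was deposited for each, holding a linear processed intensity, background-subtracted and detrended within the array but with no scaling across arrays. A series table with log2 values normalized by the authors served as an alternative only. Outlier spots (111 to 216 per array) and control spots were left out, the spots of a probe averaged, and values divided by the 75th percentile of all spots on the array. The floor, chosen after the data were seen, is the median over the 24 arrays of their weakest signal well above background.

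Probes were named by accession through the RefSeq gene table (31104 of 58201) or by the LNCipedia name in the files (10719). A probe was tested if it was well above background throughout at least 1 group in the fit, and the brightest tested probe stood for its gene. Comparisons within a line were fitted in limma 3.58.1 (R 4.3.3) over its 12 arrays, and comparisons of the lines over all 24. An alternative was a plain t-test of each gene on its own. It lacks the random variance model that the study used, so it is not the test of the study. The fit was tested on simulated data. The number of arrays limits the precision.

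The 10 members and all gene lists were chosen with earlier results of these data known. All members are reported, with the further family genes tested, the signalling genes called with over 1.5-fold change (at most 8 per comparison, some summarised), and for members called in at least 2 comparisons of SNU-449 the 3 most alike genes. Same-numbered arrays share a slide, and their deviations from the group means correlated above 0.1 in all 3 pairs for TGFβ1 alone in SNU-449 (0.13 to 0.22), galunisertib added to TGFβ1 in SNU-449 (0.10 to 0.27) and TGFβ1 alone in PLC/PRF/5 (0.17 to 0.30), so those comparisons count as paired. For responses compared between the lines the correlation was taken over the SNU-449 groups only, and the block changed no call of a member there. Normexp, an alternative, used median spot signals. Probe and protein sequences were not analysed here. One gene listed as a check of the treatment is not reported here.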

Additional observations from a re-analysis of the deposited data

Results flagged for a closer look

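In 14 cases the response of a member differed between SNU-449 and PLC/PRF/5 by the test of the difference itself, given as the log2 response in SNU-449 minus that in PLC/PRF/5. For TGFβ1 alone these were EFNA1 (0.63), EPHB4 (0.48) and EPHA7 (-0.96). For galunisertib alone they were EFNA1 (-1.59), EPHB2 (-2.16), EFNA5 (-2.01), EPHA7 (1.35), EPHA4 (1.02) and EPHB4 (0.49). For galunisertib added to TGFβ1 they were EFNA1 (-1.06), EPHB2 (-1.10), EFNA5 (-1.59), EPHA7 (1.63) and EPHA4 (0.83). For EPHA4 and EFNA5 the value of PLC/PRF/5 is at or near the floor, and for EPHB4 it is that of 1 of 2 probes. For EPHA7 the probe is not the one used within PLC/PRF/5.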

How the results depend on the processing

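Over the alternatives run, the 43 called differences gave 921 values, of which 735 stayed past the threshold, 186 kept the direction and lost the call, and 0 changed direction. The 61 differences that were not called gave 1289 values, of which 123 changed sign and 18 passed, none of them both. EPHB2 with TGFβ1 and with galunisertib on top of it in SNU-449, EFNA1 with galunisertib on top of TGFβ1 in SNU-449, and EPHA7 with TGFβ1 and EPHA7 and EPHA2 with galunisertib on top of it in PLC/PRF/5 kept an adjusted p below the threshold under every alternative run. The fold rule is not among the alternatives counted so far, and EPHA2, at 1.80-fold, did not pass it. The cause of the changes below was not tested, except that a stricter filter tests fewer genes.

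The number of members called between the control lines was 5 in place of 9 when probes had to be above background on all arrays. For TGFβ1 alone in SNU-449 it was 1 in place of 4 by fold above 2 with unadjusted P below 0.001, 2 with the array median as scale or with no scaling, and 1 by the plain t-test. For galunisertib alone in SNU-449 it was 2 in place of 4 by the fold rule, with the median, with the percentile over probes above background on all arrays and with no scaling, and 0 by the t-test. For galunisertib added to TGFβ1 in SNU-449 it was 2 in place of 4 by the fold rule, and for TGFβ1 added to galunisertib there 0 in place of 2 by the t-test.

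In PLC/PRF/5 TGFβ1 alone gave 1 in place of 2 by the fold rule, the median, no scaling, no filter on dim probes, the t-test and the replicate block. Galunisertib alone gave 0 in place of 2 by the fold rule, the median, no scaling, no filter and the t-test, and 1 with normexp and with the replicate block. Galunisertib added to TGFβ1 gave 1 in place of 2 by the fold rule and 4 with the percentile over probes above background, and TGFβ1 added to galunisertib gave 1 in place of 0 with that percentile and with normexp. The replicate block moved no other count past 1.5 times. In single genes it ended the call of EPHB4 with TGFβ1 in SNU-449 (adjusted p = 0.0538) and made one of EPHA4 with galunisertib on top of TGFβ1 there (adjusted p = 0.0471).

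Between the lines, the TGFβ1 response gave 0 in place of 3 by the fold rule, the median and no scaling, and 1 with the percentile over probes above background. The galunisertib response gave 3 in place of 6 by the fold rule, the median, no scaling and the authors' table. Galunisertib added to TGFβ1 gave 2 in place of 5 by the fold rule and no filter, and 3 with normexp, the authors' table and the stricter filter.

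Leaving out 1 array gave from 8 to 9 members between the control lines. In SNU-449 it gave 3 to 4 for TGFβ1, 2 to 4 for galunisertib, 3 to 4 for galunisertib added and 2 throughout for TGFβ1 added to galunisertib. In PLC/PRF/5 the ranges were 1 to 2, 0 to 2, 2 to 3 and 0 throughout. Between the lines they were 1 to 2 for TGFβ1, 3 to 6 for galunisertib and 2 to 5 for galunisertib added. Alternatives with the floor at 150% or with the percentile over averaged probes were chosen after seeing the data and moved no count past 1.5 times.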
